A study of Mus musculus with 6 samples.

Results

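Genes for proteins of the synapse were followed from mouse neural stem cells (NSCs) to the neurons made from them, for 2 histone marks at their start sites. The list named 33 genes, 21 of presynaptic and 12 of postsynaptic proteins, and the 31 that the authors' deposited gene tables name were scored, 20 presynaptic and 11 postsynaptic, of 18778 genes in all. Syt4 and Nlgn3, absent from these tables, are not analysed here. Shares of all genes below are of these 18778, each named in any of the 4 gene tables, so genes paired with no peak are left out. The NSCs had been derived from C57BL/6 embryonic stem cells and were used at passages 25 to 30, growing in FGF2 and EGF. The neurons were the day 11 progeny of these NSCs, after 4 days in a first medium and 7 days in a second, and had been sorted for the red fluorescent protein RedStar. The Tau promoter drove RedStar, so the sort selected cells in which Mapt, the gene of the axonal protein tau, was active, and it did not select a transmitter type. Each cell type gave 1 library for trimethylated lysine 4 of histone H3 (H3K4me3), 1 for trimethylated lysine 27 (H3K27me3) and 1 input. There were thus no replicates, and no difference between NSCs and neurons below has a replicate check or a p-value.

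A synapse releases transmitter when vesicles fuse with the presynaptic membrane: SNARE proteins pull the membranes together, synaptotagmin senses calcium and complexin clamps or promotes the fusion. Scaffold proteins hold vesicles at the active zone, neurexins and neuroligins bridge the cleft, and scaffolds such as PSD-95, Shank and gephyrin hold the receptors on the other side. Most of these genes are used in neurons and little in stem cells. H3K4me3 marks promoters that are active or ready for activity, whereas H3K27me3 is laid down by Polycomb repressive complex 2, and developmental genes in stem cells can carry both.

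A gene was counted as marked when a peak listed by the authors lay within 1 kb of its annotated start site. A mark is called lost when the NSC library had such a peak and the neuronal library did not, and gained in the reverse case; both words stand for calls, and a missing peak means none passed the authors' threshold at this depth. Peak lists held 30416 H3K4me3 peaks in NSCs and 14846 in neurons, with 3623654 and 983266 reads inside them, and 26539 and 36053 H3K27me3 peaks, with 3272324 and 3161819 reads. In 397 H3K4me3 peaks whose bounds were identical in NSCs and neurons, the ratio of neuronal to NSC reads was 0.399 for the immunoprecipitate and 0.775 for the input. For 114 such H3K27me3 peaks the ratios were 0.981 and 0.784. H3K27me3 peaks had a median width of 4800 bp in the NSC library and of 3000 bp in the neuronal one. The part of these library differences in the results at synaptic genes was not tested. As a check of the cell types, Mapt carried H3K4me3 in both and H3K27me3 in NSCs alone, and Dcx, a microtubule gene of young neurons, had H3K4me3 in neurons alone. Of the other neuronal markers scored, Tubb3 had the states of Mapt, Nefl kept both marks, Stmn2 had H3K27me3 alone in both cell types and Elavl3 had neither mark. The progenitor genes Nes, Sox2, Hes5, Fabp7 and Vim carried H3K4me3 in both, Pax6 had it in neurons alone, Prom1 went from both marks to H3K27me3, and Notch1 had neither. The neuronal markers Rbfox3 and Map2 were in no table and were not analysed here. Of the markers of other cell types, S100b of astrocytes lost H3K4me3, and Slc1a3, Gja1 and the oligodendrocyte factor gene Olig2 had it in both cell types. Gfap and Aldh1l1 of astrocytes, Mbp of oligodendrocytes and the scored microglial genes Csf1r and Tmem119 had it in neither. H3K27me3 was gained at Gja1 and Aldh1l1 and lost at Mbp and Csf1r.

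The share of synaptic genes with H3K4me3 in the stem cells was near that of all genes, and 12 of the 31 carried H3K27me3 there, against 6 in the neurons. H3K4me3 stood at 22 of 31 synaptic start sites in NSCs and 19 in neurons, beside 70.4% and 61.7% of all genes. The mark was lost at 5 of the 22, namely Syt1, Cplx1, Sv2a, Dlg4 and Shank1, and gained at 2 of the other 9, Nrxn3 and Camk2a. Over all genes 13.6% lost it and 2.81% of those without it gained it. The counts for H3K27me3 stand beside 19.2% and 17.9% of all genes. H3K27me3 was lost at 6 of the 12 (Pclo, Syn3, Sv2b, Nlgn1, Shank1 and Camk2a), against 25.3% of all genes, and gained at none of the 19 others, against 4.4%. Both marks together stood at 7 synaptic genes in NSCs and 2 in neurons, beside 8.53% and 4.59% of all genes. Of these 7 genes Pclo and Syn3 kept H3K4me3 alone, Syt1 and Cplx1 kept H3K27me3 alone, Shank1 kept neither, and Bsn and Rims1 kept both. Over all genes with both marks in NSCs these courses were taken by 20.9%, 37.3%, 4.93% and 36.9%. H3K4me3 alone in both cell types was the state of 13 synaptic genes, beside 54.9% of all genes. H3K27me3 alone in both stood at 2 genes, Cplx2 and Dlg2, beside 7.65%, and neither mark in either at 3 genes, Snap25, Syp and Shank2, beside 16.7%.

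**Figure D1:**
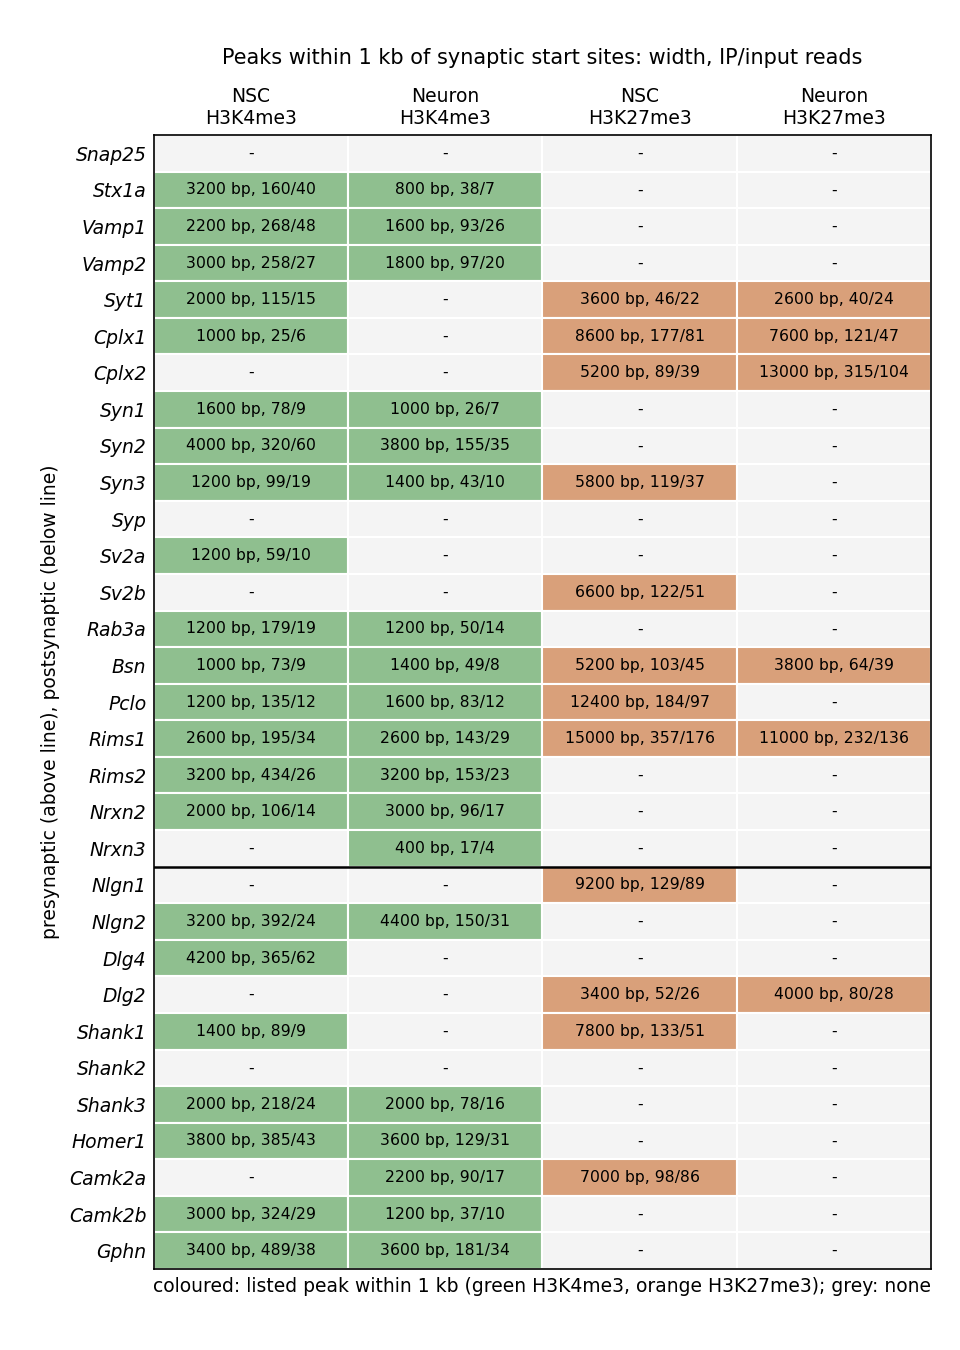
The 31 scored synaptic genes (rows, presynaptic above the line, postsynaptic below) in the 4 immunoprecipitated libraries (columns). Coloured cells have a listed peak within 1 kb of the start site and give its width in bp and its immunoprecipitated over input reads; 12 genes have H3K27me3 in NSCs and 6 of them in neurons.

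By the peak lists and the limit of 1 kb, H3K4me3 stood at 15 presynaptic genes in NSCs and 13 in neurons, of 20, and at 7 and 6 postsynaptic genes, of 11. H3K27me3 stood at 8 and 5 presynaptic genes and at 4 and 1 postsynaptic genes. The loss of H3K27me3 was 3 of 8 on the presynaptic side and 3 of 4 on the postsynaptic side, beside 25.3% of all genes, and this difference was not tested. These counts depended on the rule. With equal numbers of peaks presynaptic loss was 5 of 8 and postsynaptic loss 3 of 4, beside 1066 of 3598 over all genes. At FDR under 1e-20 they were 5 of 6 and 1 of 1, beside 1010 of 2461. Within 10 kb they were 0 of 8 and 2 of 5, beside 1001 of 5531. Within 10 kb presynaptic H3K27me3 stood at 8 genes in NSCs and 9 in neurons and postsynaptic H3K4me3 at 9 in each, and by the gene tables presynaptic H3K4me3 stood at 11 and 12 and postsynaptic at 6 in each. Loss of H3K4me3 went with narrow NSC peaks, at 4 of 11 genes with a peak of at most 2000 bp and 1 of 11 with a wider one, beside 25.5% and 4.92% of all genes. It was called at 3 of the 7 genes with both marks in NSCs and 2 of the 15 with H3K4me3 alone, beside 42.2% and 9.62% of all genes. In both splits the synaptic genes stood near the shares of all genes. Loss of H3K27me3 was called at 4 of 8 genes with an NSC peak of at most 8000 bp and 2 of 4 with a wider one, beside 36.4% and 15.1%.

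The authors' gene tables gave other counts. The neuronal H3K4me3 table holds peaks at FDR under 0.001 and the other 3 only peaks at FDR under 1e-20, and the part of this in the counts was not tested; the peak lists cut at FDR under 1e-20 gave 21 synaptic genes with H3K4me3 and 7 with H3K27me3 in NSCs. By the tables H3K4me3 stood at 17 synaptic genes in NSCs and 18 in neurons, so the order of the cell types was turned, beside 58.5% and 51.6% of all genes. Syt1, Sv2a and Shank1 lost it, 3 of 17 beside 18.2%, and Syn2, Nrxn2, Nrxn3 and Camk2a gained it, 4 of 14 beside 9.08%. The gains at Syn2 and Nrxn2 do not stand for absence in NSCs. The NSC peak list had peaks across both start sites, at FDR 1.03e-124 and 1.25e-56, which the NSC gene table did not give there. H3K27me3 stood at 3 genes in NSCs and 1 in neurons, beside 7.74% and 5.09%. It was lost at Bsn and Pclo, 2 of 3 beside 57.2%, and gained at none, beside 1.92%. Both marks stood at 2 genes in NSCs and 0 in neurons, beside 2.32% and 0.831%. The losses of H3K4me3 at Syt1, Sv2a and Shank1, its gains at Nrxn3 and Camk2a and the loss of H3K27me3 at Pclo were therefore called both ways. Both ways draw on the same libraries, so neither is an independent check of the other. At FDR under 1e-20 no presynaptic gene gained H3K4me3, and with a window of 10000 bp no postsynaptic gene did.

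The DNA before these genes differed in its content of CpG, the dinucleotide that is dense at many H3K4me3 and Polycomb promoters. The 250 bases upstream of the RefSeq start (GRCm38.p6) are printed for 5 genes chosen to show the states, with every CpG in capitals and the gene's strand read 5′ to 3′. Gphn (chr12:78226405-78226654, plus strand) had H3K4me3 alone in both cell types, Pclo (chr5:14514668-14514917, plus strand) went from both marks to H3K4me3, Cplx1 (chr5:108550028-108550277, minus strand) went from both marks to H3K27me3, Cplx2 (chr13:54302306-54302555, plus strand) had H3K27me3 alone, and Syp (chrX:7638330-7638579, plus strand) had neither mark.
Gphn: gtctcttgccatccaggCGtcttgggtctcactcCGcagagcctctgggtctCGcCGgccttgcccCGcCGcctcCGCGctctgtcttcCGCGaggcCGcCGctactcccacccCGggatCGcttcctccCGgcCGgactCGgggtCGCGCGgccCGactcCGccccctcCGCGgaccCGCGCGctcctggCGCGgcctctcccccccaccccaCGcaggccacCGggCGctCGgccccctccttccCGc
Pclo: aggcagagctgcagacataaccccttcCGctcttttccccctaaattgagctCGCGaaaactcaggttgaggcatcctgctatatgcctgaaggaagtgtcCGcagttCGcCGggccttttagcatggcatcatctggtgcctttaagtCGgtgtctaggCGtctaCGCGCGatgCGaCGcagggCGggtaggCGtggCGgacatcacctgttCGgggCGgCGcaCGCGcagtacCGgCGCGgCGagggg
Cplx1: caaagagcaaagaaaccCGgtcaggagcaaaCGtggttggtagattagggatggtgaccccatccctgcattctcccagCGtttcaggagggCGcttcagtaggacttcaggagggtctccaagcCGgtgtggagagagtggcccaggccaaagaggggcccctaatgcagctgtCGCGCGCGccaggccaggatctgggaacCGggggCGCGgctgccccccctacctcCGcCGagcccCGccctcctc
Cplx2: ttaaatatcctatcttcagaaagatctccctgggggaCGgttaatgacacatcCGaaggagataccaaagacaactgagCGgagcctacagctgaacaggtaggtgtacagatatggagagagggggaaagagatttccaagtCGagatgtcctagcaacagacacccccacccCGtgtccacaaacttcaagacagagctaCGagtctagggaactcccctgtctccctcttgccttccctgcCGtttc
Syp: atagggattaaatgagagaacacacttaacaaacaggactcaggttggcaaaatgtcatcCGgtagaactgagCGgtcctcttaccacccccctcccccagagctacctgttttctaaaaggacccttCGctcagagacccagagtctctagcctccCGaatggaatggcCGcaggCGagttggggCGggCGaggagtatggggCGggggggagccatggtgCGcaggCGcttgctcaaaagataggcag

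Gphn held 34 CpG in this window, Pclo 25, Cplx1 15, Syp 11 and Cplx2 7. The ratio of observed to expected CpG, which corrects for base composition, was 1.07 at Pclo, 1.00 at Gphn, 0.572 at Cplx1, 0.557 at Syp and 0.436 at Cplx2. A window was found for 23 of the 31 synaptic genes, and by NSC state the median ratio was 0.738 for 12 genes with H3K4me3 alone, 0.671 for 5 with both marks, 0.457 for 4 with H3K27me3 alone and 0.356 for 2 with neither. Over all genes with a window the medians were 0.773, 0.723, 0.291 and 0.292 in the same order. The synaptic genes thus followed the order of all genes between the 2 classes with H3K4me3 and the 2 without it, as a description. Within the class with both marks, Pclo (1.07) and Bsn (1.01) were the densest, Rims1 was at 0.671, and Cplx1 (0.572) and Syt1 (0.404) were the sparsest. The first 3 of these 5 genes kept H3K4me3 in neurons and the last 2 lost it. Syn3, which kept it, and Shank1, which lost it, also had both marks but no window. Whether CpG content goes with this course was not tested, and all genes were not split by it. Among genes with H3K4me3 alone in NSCs, Dlg4 (0.291) was the lowest and Stx1a (0.420) and Sv2a (0.493) were the next, and Dlg4 and Sv2a lost the mark. The RefSeq starts were not matched by position to the mm9 start sites that were scored, and for 9 genes with more than 1 RefSeq start the most upstream was used.

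**Figure D2:**
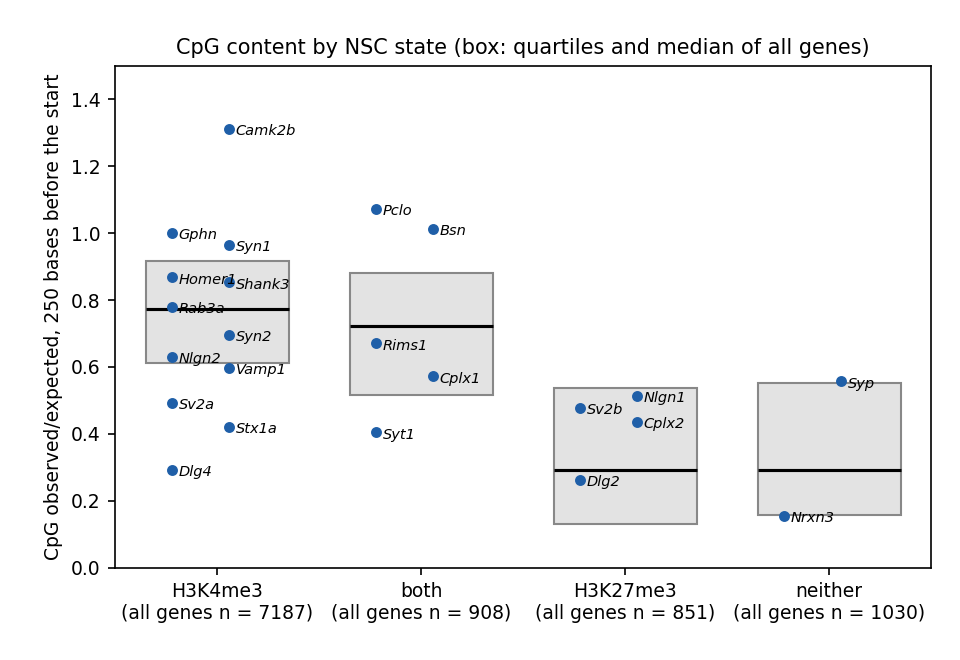
Observed over expected CpG in the 250 bases before the RefSeq start (vertical axis) by state in NSCs (horizontal axis), with 1 blue point for each of 23 synaptic genes. Grey boxes give the quartiles and the black line the median of all genes of that state; Pclo and Bsn lie above the box of genes with both marks and Syt1 below it.

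The repressor REST, which holds neuronal genes silent outside neurons, binds a motif whose left arm reads TTCAGCACC. This arm was searched on both strands of the 250 RefSeq bases before each start. It was found in 0.301% of all 32851 windows, 99 in number, and in 2 of the 37 windows of synaptic genes. These were Syn1, where it begins 232 bases before the start, and 1 of the 2 starts of Nlgn1, where it begins 153 bases before. The Syn1 bases (chrX:20920919-20921168, minus strand) are shown with the arm in capitals.
Syn1: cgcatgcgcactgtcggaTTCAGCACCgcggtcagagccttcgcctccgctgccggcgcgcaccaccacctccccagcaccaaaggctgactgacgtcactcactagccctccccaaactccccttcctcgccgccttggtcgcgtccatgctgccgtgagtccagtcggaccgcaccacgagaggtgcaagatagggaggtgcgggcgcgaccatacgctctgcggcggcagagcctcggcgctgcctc

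The genes of the fusion machinery fell into 3 kinds. Of the SNARE genes, Stx1a (syntaxin), Vamp1 and Vamp2 (synaptobrevins) had H3K4me3 alone in both cell types. Vamp2 had 258 reads over 27 of the input in a 3000 bp peak in NSCs and 97 over 20 in 1800 bp in neurons. Stx1a had 160 over 40 in 3200 bp and 38 over 7 in 800 bp, the narrowest neuronal peak of the genes marked in both. Snap25, the SNARE of the presynaptic membrane, was unmarked at the start site in NSCs and in neurons. Its nearest H3K4me3 peak lay 26011 bp away inside the gene in NSCs, with 29 reads over 12, and 34390 bp away in neurons.

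Syt1, the calcium sensor, and Cplx1 and Cplx2, the complexins, were the fusion genes with H3K27me3, and by the peak lists all 3 kept it in neurons. Syt1 (start site at 108448038 on mm9 chromosome 10, minus strand) had an H3K4me3 peak of 2000 bp with 115 reads over 15 in NSCs, while in neurons the nearest one lay 677639 bp off. Its H3K27me3 peak was 3600 bp with 46 reads over 22 in NSCs and 2600 bp with 40 over 24 in neurons, among the weakest of the synaptic genes. Cplx1 (108979043 on chromosome 5, minus strand) had a small NSC H3K4me3 peak, 25 reads over 6 in 1000 bp, and none within 78757 bp in neurons. It lay in H3K27me3 in both, with 177 reads over 81 in 8600 bp in NSCs and 121 over 47 in 7600 bp in neurons. So for both genes the state in neurons was H3K27me3 without H3K4me3, in cells sorted as neurons.

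Cplx2 (54472713 on chromosome 13, plus strand) had the highest ratio of neuronal to NSC H3K27me3 reads among the 6 synaptic genes marked in both cell types. Its NSC peak was 5200 bp wide with 89 reads over 39, and its neuronal peak, 314 bp from the start site, was 13000 bp wide with 315 over 104. This ratio was 3.54 (95% interval 2.79 to 4.53, exact, counting error only), and 1.12% of all genes marked in both had a higher one. The input reads were higher in the wider peak too, 104 against 39. The NSC peak lay across the start site and the neuronal peak upstream of it, so the ratio compares neighbouring stretches. Within 5 kb of the start 5200 bp were covered in the NSC list, and 4687 bp in the neuronal list. The other H3K27me3 ratios were 0.870 at Syt1, 0.684 at Cplx1, 0.650 at Rims1, 0.621 at Bsn and 1.54 (1.07 to 2.23) at Dlg2, beside a median of 0.660 over all genes.

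Of the genes of vesicle proteins, the synapsins and Rab3a had H3K4me3 in both cell types, whereas Syp and the Sv2 genes did not. Synapsins tether vesicles to each other and to actin. Syn2 had 320 H3K4me3 reads over 60 in NSCs, in 4000 bp, and 155 over 35 in neurons, in 3800 bp. Syn1 had 78 over 9 in NSCs and 26 over 7 in neurons, and its neuronal peak lay 131 bp from the start site. Syn3 (85961641 on chromosome 10, minus strand) was the synapsin with H3K27me3, in NSCs only, with 119 reads over 37 in a 5800 bp peak whose edge lay 959 bp from the start site. The nearest neuronal H3K27me3 peak was 7559 bp away, and Syn3 H3K4me3 had 99 reads over 19 in NSCs and 43 over 10 in neurons. Rab3a, a vesicle GTPase, had 179 H3K4me3 reads over 19 in NSCs and 50 over 14 in neurons, in 1200 bp each.

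Syp (synaptophysin, 7215597 on chromosome X, plus strand) was also unmarked. Its nearest H3K4me3 peak was 10003 bp into the gene in NSCs, with 46 reads over 6, and 83003 bp away in neurons. Sv2a and Sv2b encode vesicle membrane proteins of the transporter fold. Sv2a (95985074 on chromosome 3, plus strand) had H3K4me3 in NSCs, 59 reads over 10 in 1200 bp, and in neurons the nearest peak lay 7675 bp off. Sv2b (82453265 on chromosome 7, minus strand) had H3K27me3 in NSCs, 122 reads over 51 in 6600 bp, and the nearest neuronal peak, 50 over 28, ended 1066 bp away. Both therefore stood without either mark in neurons. A peak at the Sv2b start site also held the start of another gene.

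The genes of the active zone held 3 of the 7 genes with both marks. Bassoon and piccolo are giant scaffolds, and RIM proteins link vesicles to calcium channels. Pclo (piccolo, 14515221 on chromosome 5, plus strand) had H3K4me3 of 1200 bp with 135 reads over 12 in NSCs and of 1600 bp with 83 over 12 in neurons. In NSCs this peak lay inside an H3K27me3 domain of 12400 bp with 184 reads over 97. In neurons the H3K27me3 was listed as separate peaks, among them 1 of 2200 bp with 52 reads over 22 that ended 1022 bp upstream of the start and 1 of 3600 bp with 92 over 27 that began 1579 bp into the gene. Over all neuronal peaks, 6401 of the 10001 bp around the start were covered, against all 10001 in NSCs. At Pclo the neuronal list thus had a gap around the start site between these 2 peaks, and the loss was called there. A second Ensembl entry named Pclo, of 3.5 kb, had no peak at its start.

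Rims1 (22812563 on chromosome 1, minus strand) kept both marks. Its H3K4me3 peaks were 2600 bp in both, with 195 reads over 34 in NSCs and 143 over 29 in neurons, and its H3K27me3 peaks were 15000 bp with 357 over 176 and 11000 bp with 232 over 136. Bsn (108092715 on chromosome 9, minus strand) kept both as well, with H3K4me3 at 73 reads over 9 and 49 over 8. Its H3K27me3 peak was 316 bp from the start in NSCs, 103 reads over 45 in 5200 bp, and 885 bp away in neurons, 64 over 39 in 3800 bp. The neuronal call at Bsn, like the NSC call at Syn3, was close to the limit of 1000 bp, and Pclo and Sv2b lay just outside it. Rims2 had H3K4me3 alone, in peaks of 3200 bp with the same bounds, with 434 reads over 26 in NSCs and 153 over 23 in neurons.

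The adhesion genes differed within each family. Neurexins sit on the presynaptic side and bind neuroligins on the other. Nrxn2 had H3K4me3 alone, 106 reads over 14 in 2000 bp in NSCs and 96 over 17 in 3000 bp in neurons, at a peak that also held another gene's start site. Nrxn3 (89961332 on chromosome 12, plus strand) gained H3K4me3 by a peak of 400 bp with 17 reads over 4, the smallest of the neuronal peaks at synaptic genes, while NSCs had none within 361133 bp. Nlgn2, of inhibitory synapses, had H3K4me3 alone, 392 reads over 24 in NSCs and 150 over 31 in neurons, also at a peak shared with another start site. Nlgn1, of excitatory synapses (26032656 on chromosome 3, minus strand), had H3K27me3 in NSCs, 129 reads over 89 in 9200 bp, and none within 503544 bp in neurons. Its start site had no H3K4me3, the nearest being 18744 bp away in NSCs and 17344 bp in neurons.

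Among the postsynaptic scaffolds, Homer1, Shank3 and Gphn had H3K4me3 alone in both cell types. Gphn, the gephyrin scaffold of inhibitory synapses, had the most NSC reads of the synaptic genes, 489 over 38 in 3400 bp, and 181 over 34 in 3600 bp in neurons. Homer1, which links Shank to metabotropic receptors, had 385 over 43 and 129 over 31, and Shank3 had 218 over 24 and 78 over 16. Dlg4 (PSD-95, the scaffold of excitatory synapses, 69830587 on chromosome 11, plus strand) had 365 reads over 62 in a 4200 bp peak, 613 bp from the start site, in NSCs. That NSC peak lay inside the gene. The nearest neuronal peak was 1588 bp from the start, before it and not inside the gene, and had 25 reads over 8 in 600 bp. Inside the gene the 1 neuronal peak lay 11413 bp from the start, with 31 reads over 16. Dlg4 thus lost the mark by the limit of 1 kb. Dlg2 (PSD-93, 98239216 on chromosome 7, plus strand) had H3K27me3 in both, 52 over 26 in NSCs and 80 over 28 in neurons. Its nearest H3K4me3 lay 171184 bp into the gene in NSCs, with 45 reads over 9, and 171384 bp in neurons, with 32 over 3, each 1000 bp wide.

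Shank1 (51565623 on chromosome 7, plus strand) was the synaptic gene that went from both marks to neither. In NSCs it had 89 H3K4me3 reads over 9 in 1400 bp and 133 H3K27me3 reads over 51 in 7800 bp, and the nearest neuronal peaks were 4624 and 5177 bp away. A peak at this start site also held another gene's start. Shank2 (151187833 on chromosome 7, plus strand) had neither mark within 1 kb, but H3K27me3 lay 2034 bp away in NSCs, 48 reads over 27, and 2767 bp away in neurons, 33 over 11. Its H3K4me3 peaks lay 3634 and 3234 bp away, with 43 reads over 9 in NSCs and 22 over 10 in neurons.

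Camk2a and Camk2b, of the calcium-dependent kinase of the postsynaptic density, differed in both marks. Camk2a (61085272 on chromosome 18, plus strand) was the synaptic gene that went from H3K27me3 alone to H3K4me3 alone within 1 kb. Its NSC H3K27me3 peak was 7000 bp wide with 98 reads over 86 as raw counts, the closest to its input of the 12, at FDR 8.08e-06. Neurons had their nearest one at a distance of 31328 bp. Its neuronal H3K4me3 peak, which covered the start site, was 2200 bp wide with 90 reads over 17. With a window of 10000 bp no postsynaptic gene gained H3K4me3, so the gain at Camk2a rested on the limit of 1 kb. Camk2b had H3K4me3 of 3000 bp with 324 reads over 29 in NSCs, and in neurons a peak of 1200 bp with 37 over 10 that lay 566 bp from the start site. No H3K27me3 peak stood within 1 kb of Camk2b in either cell type.

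At the 17 listed genes with H3K4me3 in both cell types, peak widths and reads were set side by side. The neuronal peak was wider at 6, equal at 4 and narrower at 7 of the 17, whereas over all 11424 genes marked in both 11.1% were wider and 81% narrower. The other synaptic genes described at the end stood near all genes, with 8 wider, 5 equal and 40 narrower of 53, and none of these differences was tested. The median width was 2600 bp in NSCs and 1800 bp in neurons, and the median reads were 218 and 93. The ratio of neuronal to NSC reads had a median of 0.370 at the synaptic genes, with a range from 0.114 to 0.906, beside 0.306 over all genes. It was highest at Nrxn2, 0.906 (0.680 to 1.21), Rims1, 0.733 (0.587 to 0.915), Bsn, 0.671 (0.458 to 0.977), and Pclo, 0.615 (0.462 to 0.814). Of all genes marked in both, 0.919%, 1.43%, 1.80% and 2.43% had a higher ratio than these 4. Their NSC reads, 106, 195, 73 and 135, were below the median of 250 over those genes. Genes of like NSC read count were not set apart, and only genes with a neuronal peak have a ratio. Rims1, Bsn and Pclo had both marks in NSCs, and over all 925 genes with both marks in NSCs and H3K4me3 in both cell types the median ratio was 0.346, with quartiles at 0.259 and 0.471. The 4 synaptic genes of that kind, with Syn3 at 0.434, had a median of 0.643, and the 13 with H3K4me3 alone in NSCs had 0.353, beside 0.304 over all genes.

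Camk2b was at the other end. Its ratio of 0.114 (0.079 to 0.161) was exceeded by 98.1% of all genes, and that of Stx1a, 0.238 (0.162 to 0.340), by 78.7%. The ratios use reads inside each library's own peak and no scaling of the libraries, so they are read against the median of all genes and not against 1.

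**Figure D3:**
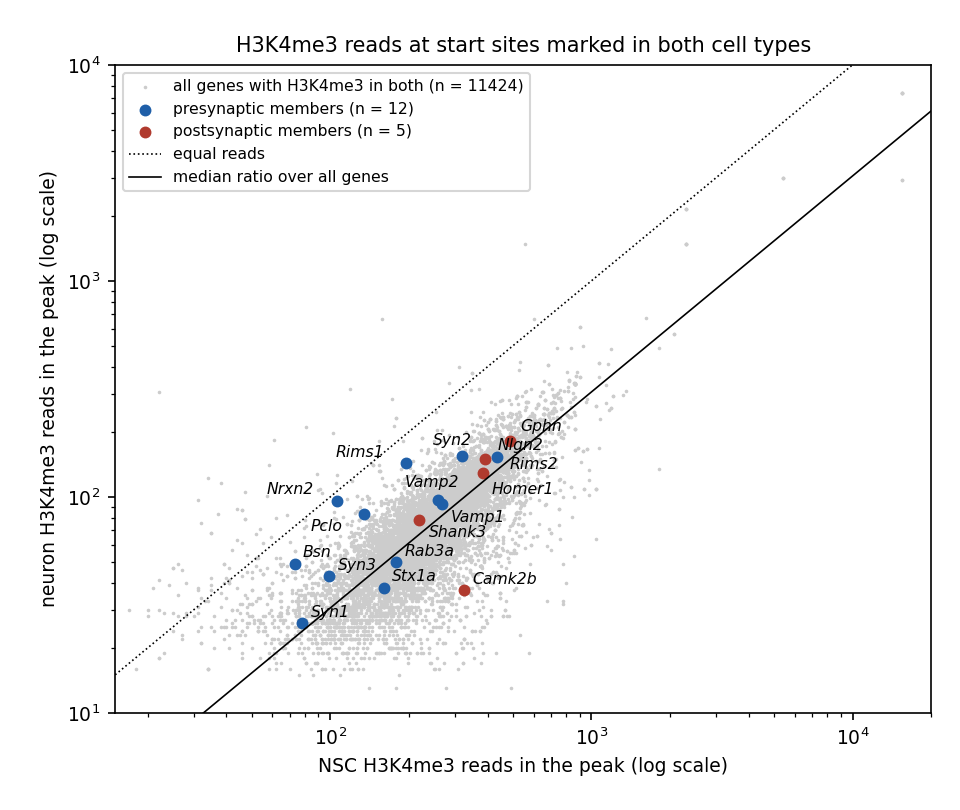
Immunoprecipitated H3K4me3 reads in the peak at the start site in NSCs (horizontal, log scale) and neurons (vertical, log scale) for 12 presynaptic genes (blue), 5 postsynaptic genes (red) and all 11424 genes marked in both (grey). The solid line is the median ratio of all genes, 0.306; Nrxn2, Rims1, Bsn and Pclo lie nearest to the dotted line of equal reads and Camk2b far below the solid one.

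H3K27me3 near the start sites was less extensive in neurons at each of the listed genes that had any. Within 5 kb on either side of the start, 13 of the 31 genes had H3K27me3 peaks in either cell type, and the covered length was lower in neurons at all 13 and higher at none. Of all 5549 genes with any such cover, 63.3% had less in neurons and 29.9% had more. Of the 81 other synaptic genes, 26 had less and 7 had more. The mean over the 31 synaptic genes was 2746 bp in NSCs and 1382 bp in neurons, beside 1503 and 1226 bp over all genes. Shank1 (7800 bp in NSCs), Nlgn1 (7144 bp), Camk2a (5873 bp) and Syn3 (4042 bp) had none left in neurons. Sv2b went from 7335 to 2400 bp, Shank2 from 4034 to 1800 bp and Rims1 from 10001 to 7564 bp. The differences were smallest at Dlg2, 6417 and 5984 bp, and Cplx2, and at Bsn, 4685 and 3800 bp, they were under 1 kb as well. With flanks of 10 kb the counts were 11 lower and 2 higher, and with peaks at FDR under 1e-20 alone they were 8 and 1. H3K4me3 cover had means of 1819 and 1373 bp at synaptic genes and 1990 and 1316 bp over all genes.

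**Figure D4:**
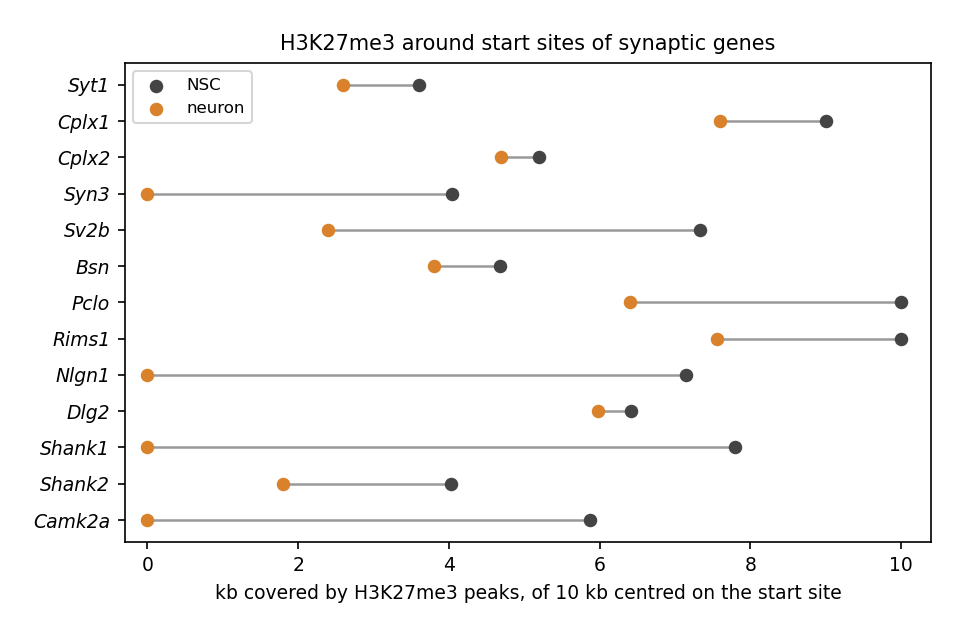
Length covered by H3K27me3 peaks (horizontal axis, kb) in the 10 kb centred on the start site in NSCs (dark) and neurons (orange), for the 13 synaptic genes with any. The orange point lies left of the dark one at all 13, and at 0 for Syn3, Nlgn1, Shank1 and Camk2a.

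Along the bodies of the long synaptic genes H3K27me3 differed in both directions. Of 14 synaptic genes of at least 100 kb, 3 had over 10 kb more H3K27me3 cover in neurons and 4 had over 10 kb less, beside 7.39% and 13.3% of 2193 genes of that length. Dlg2 had 113.6 kb covered in NSCs, 8.37% of the gene, by 25 peaks with 1672 reads over 979, and 251.1 kb in neurons, 18.5%, by 71 peaks with 5150 reads over 2333. Of the 2193 genes of at least 100 kb, 0.0456% had a larger increase in kb. Dlg2 is 1356 kb long, and the increase as a share of the gene was not ranked. The neuronal peaks of Dlg2 ran from its start to its end and had a median width of 3200 bp. Nrxn3 had 7.8 kb covered by 1 peak in NSCs and 77.4 kb by 23 peaks in neurons, centred from 236.8 to 1593 kb into the gene. Most of these peaks were modest: 7 of the 71 in Dlg2 and 1 of the 23 in Nrxn3 had FDR under 1e-20. With such peaks alone the increase was 40.4 kb at Dlg2 and 7.2 kb at Nrxn3, and with equal numbers of peaks 81.3 and 34.2 kb.

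The decrease was largest at Shank2, from 180.4 kb in NSCs to 66.4 kb in neurons, and at Rims1, from 231.0 to 154.8 kb. The widest domains of these genes lay deep inside them, in Rims1 one of 43200 bp with 1528 reads over 561 centred 410.8 kb from the start in NSCs and one of 30400 bp with 832 over 373 at 407.4 kb in neurons. Syn3 went from 66.6 to 36.2 kb and Sv2b from 59.1 to 30.8 kb. At FDR under 1e-20 the differences were -40.4 kb at Shank2, -96.4 kb at Rims1 and -29.7 kb at Sv2b, and Syn3 showed none. Nlgn1 had 10.5 kb in NSCs and 30.2 kb in neurons, but the latter was a peak 30200 bp wide holding 1260 reads against 1208 of the input, 591.4 kb from the start, so its reads hardly exceeded the input. Without it, as with equal numbers of peaks, Nlgn1 had less cover in neurons than in NSCs, a difference of -10.5 kb. Among shorter genes, Camk2a went from 30.5 to 3.2 kb, Shank1 from 39.0 to 27 kb and Cplx1 from 19.0 to 6.4 kb.

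**Figure D5:**
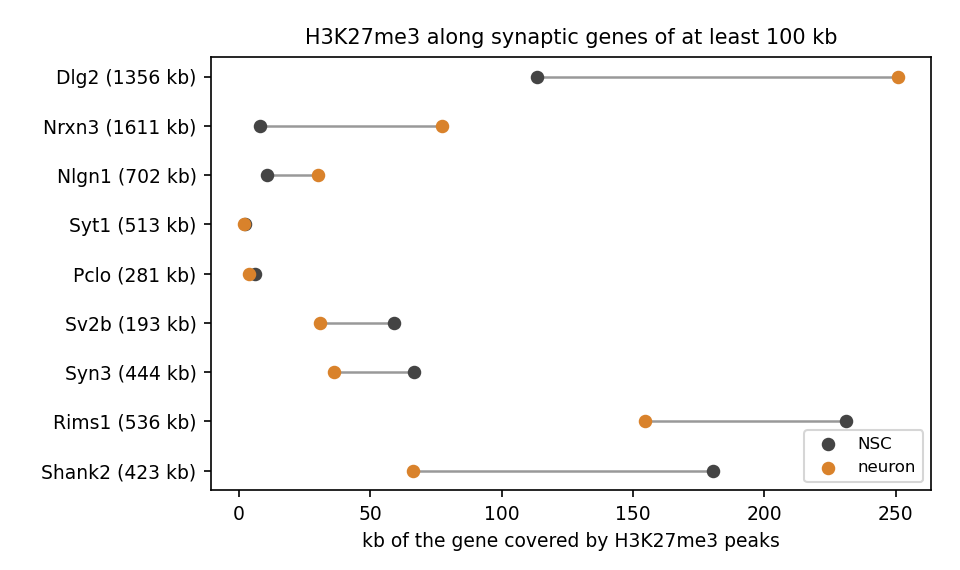
Length of the gene covered by H3K27me3 peaks (horizontal axis, kb) in NSCs (dark) and neurons (orange) for the 9 synaptic genes of at least 100 kb that had any, with gene lengths in parentheses. Dlg2, Nrxn3 and Nlgn1 have more in neurons, with differences of 137.5, 69.6 and 19.7 kb, and Shank2 and Rims1 less, with -114 and -76.2 kb.

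Other synaptic genes were taken from 2 further lists, 46 presynaptic and 43 postsynaptic, of which 41 and 40 were in the tables. H3K4me3 stood at 32 of the 41 presynaptic genes in NSCs and 28 in neurons, and at 34 and 27 of the 40 postsynaptic genes, beside 70.4% and 61.7% of all genes. It was lost at 6 of the 32 and 7 of the 34, beside 13.6% of all genes. Genes that lost it included Rims3, Slc17a7, Sncb, Syt3 and Syt12 on the presynaptic side and Dlg3, Dlgap2, Lrrc4c, Lrrtm1, Shisa7 and Slitrk3 on the postsynaptic side. H3K4me3 was gained at Cadps and Rimbp2, 2 of 9 presynaptic genes without it in NSCs, and at 0 of 6 postsynaptic ones, beside 2.81% of all genes. Slc17a7, the vesicular glutamate transporter VGLUT1, had an NSC peak of 800 bp with 44 reads over 5, and kept H3K27me3, 266 over 74 in NSCs and 144 over 30 in neurons.

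H3K27me3 stood at 18 and 15 of the other presynaptic genes and at 11 and 8 of the other postsynaptic ones, beside 19.2% and 17.9% of all genes. It was lost at Erc2, Ppfia2, Snap91 and Sypl2 and at Cacng3, Lrrtm1, Slitrk1 and Tanc2. These losses were 4 of 18 presynaptic and 4 of 11 postsynaptic genes, 8 of 29 together, near the 25.3% of all genes. Erc2, Ppfia2, Snap91, Slitrk1 and Tanc2 kept H3K4me3 alone, 5 of 22 genes with both marks in NSCs, beside 20.9% of all genes. Of the rest of the 22, 6 kept H3K27me3 alone, among them the active zone gene Rims3, 10 kept both and 1 kept neither. Erc2 and Ppfia2 (liprin) are active zone scaffolds. Slitrk1, an adhesion protein, had 89 H3K4me3 reads over 23 in NSCs and 128 over 30 in neurons. The mark was gained at Slc17a6, the transporter VGLUT2, with 363 reads over 92 in a 14000 bp peak in neurons and an NSC peak 2763 bp away, and at Sorcs2, with 195 over 73. These gains were 1 of 23 presynaptic and 1 of 29 postsynaptic genes without the mark in NSCs, near the 4.4% of all genes.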

How the data were processed

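Mouse NSCs and neurons were profiled by chromatin immunoprecipitation and sequencing, with 1 library per cell type and mark and 1 input each. Per the labels' protocols, chromatin fixed in 1% formaldehyde was sheared to about 300 bp. Bowtie, SICER, SAMtools and FastQC appear in the submitters' processing notes with no version, as does the build mm9, and no settings are stated there. The authors deposited, for each library, a peak list with, per peak, its fold over input (a ratio), its p-value and FDR and the count of reads from immunoprecipitate and input, and a table pairing peaks with Ensembl genes. All listed peaks had FDR under 0.001 and bounds in steps of 200 bp. The inputs are known only inside peaks, and full depth is unknown. Reads over input are given as raw counts without scaling for depth, so such a pair is not a fold enrichment.

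The 5′ end of each gene, as the tables give it, was its start site, and the nearest peak within 1000 bp stood for it. The peak lists were used because 3 of the gene tables hold only peaks at FDR under 1e-20. Ratios of reads have exact conditional binomial 95% intervals for counting error only. No test was possible without replicates. Full values are given for genes whose marks differ, that carry both marks or neither, and for the widest and narrowest of the rest; other synaptic genes are named where a mark differs, except a few that are not reported here. The members and lists were chosen with earlier results of these data known. The scoring was tested on simulated data. Software was Python 3.11.15 with scipy 1.17.1, numpy 2.4.6, pandas 2.3.3 and, for plots, matplotlib 3.10.9. Sequences are from RefSeq. Alternatives were the gene tables, a peak covering the start, a window of 10000 bp, FDR under 1e-20, equal numbers of peaks, the widest peak, and others added after seeing the data.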

Additional observations from a re-analysis of the deposited data

How the results depend on the processing

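Counts of marked synaptic genes depended on the peak threshold and on the distance allowed. Of the counts, H3K4me3 in NSCs and in neurons stayed within 1.5 times under the gene tables, both other distances, the stricter FDR and equal numbers of peaks. Lost H3K4me3, 5 of 22 genes, was 3 of 17 by the gene tables and 9 of 21 with peaks that cover the start site. It was 2 of 24 with a window of 10000 bp and 9 of 21 at FDR under 1e-20. Over all genes it was 1794 of 13218, and 1998 of 10980, 2931 of 12587, 2110 of 14685 and 5004 of 12479 in the same order. Gained H3K4me3, 2 genes, was 4 by the gene tables and 1 under each of the other 3. Of all genes 156 gained it, 708 by the gene tables, and 137, 363 and 35 under the other 3 in the order above. H3K27me3 in NSCs, 12 genes, was 3 by the gene tables and 7 at FDR under 1e-20, beside 3598, 1453 and 2461 of all genes. H3K27me3 in neurons, 6 genes, was 1 by the gene tables, 3 with peaks covering the start, 12 with the wide window and 2 at FDR under 1e-20. It stood at 3355 of all genes, and at 955, 2613, 5437 and 1813 in that order. Lost H3K27me3, 6 of 12 genes, was 2 of 3 by the gene tables and 2 of 13 with the wide window. Over all genes it was 911 of 3598, 831 of 1453 and 1001 of 5531. Gained H3K27me3, 0 genes, was 1 with the wide window and 1 at FDR under 1e-20, beside 668, 907 and 362 of all genes. Both marks in NSCs, 7 genes, was 2 by the gene tables, beside 1601 and 436 of all genes. Both marks in neurons, 2 genes, was 0 by the gene tables, 1 covering the start and 7 with the wide window. It was 0 at FDR under 1e-20 and 1 with equal numbers of peaks. Both stood at 861 of all genes, and at 156, 451, 2274, 105 and 748 in that order. The causes were not tested. Median H3K4me3 widths did not move with the widest peak. Leaving out Nlgn2, Nrxn2, Shank1 and Sv2b, whose peaks hold another start site, an alternative chosen after seeing the data, moved no count by over 1.5 times. The other flanks and peak thresholds for H3K27me3 cover were likewise chosen then. For H3K27me3 over Nlgn1 the difference between neurons and NSCs, 19.7 kb, reversed to -10.5 kb with equal numbers of peaks. No paired analysis was possible because each cell type had 1 library per mark. At FDR under 1e-20 there were 13 genes with H3K4me3 in neurons, of 19, beside 7510 of 11580 over all genes. Full depth is unknown.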
